A study of Mus musculus with 1298 samples.

Results

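Pax3 and Pax7 were followed through every single-cell class and the usable bulk libraries of a Pax7 lineage tracing experiment in mouse embryos. The 2 genes were taken by symbol from the count tables, and both are among the 15147 genes listed in both single-cell tables (17634 genes on 10x, 22894 on Smart-seq2), as well as among the 22938 genes of the bulk table. Pax3 and Pax7 are closely related transcription factors that bind DNA through a paired domain and a homeodomain. In the somite they mark the dermomyotome and the muscle progenitors that leave it, where they act upstream of the myogenic factors Myf5 and Myod1, and Pax7 later marks the satellite cells of adult muscle. Both genes are also read in progenitors of the dorsal neural tube and in neural crest.

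All embryos carried a tamoxifen-dependent Cre expressed from the Pax7 locus (Pax7CreER) and the R26R-stop-EYFP reporter. Pregnant mice received 1 dose of tamoxifen (75 µg per g body weight) at E9.5, so that YFP marks cells whose forebears read Pax7 around that day, whether or not they still do. Embryos were harvested at E12.5, E14.5 or E16.5, head, limbs and viscera were removed, several embryos were pooled, and YFP+ cells were sorted and sequenced on 10x (1 library per day) or with Smart-seq2 (15 plates). Cells that read Pax3 without an earlier Pax7 signal lie outside this sort, and every cell analysed shares the genotype and the tamoxifen, with no untreated group analysed here. Of the 18 bulk libraries, which the labels give as sorted E16.5 cells or cells of E14.5 cultured in ADM or DMEM medium, the sorted Pdgfra-/Cd36+ duplicates were used.

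Of 3916 deposited cells 3852 were kept, 2921 on 10x and 931 on Smart-seq2, and they fell into 17 clusters and 10 classes named from fixed markers, with both members left out of the clustering. The classes that matter here are EM-like (muscle progenitor), LM-like (differentiating muscle), EP-like and LP-like (early and late mesenchymal progenitor), DF-like (dermal fibroblast), BA-like (brown adipocyte), N-like (neuron) and NP-like (neural progenitor). The median depth per cell ran from 1608 to 5930 UMIs on 10x and from 393416 to 829590 expected counts on Smart-seq2, and 3 cell barcodes occurred in more than 1 10x library. Each level is the sum over the cells of a class on 1 platform and 1 day (called a pool), scaled to CPM, that is per 1000000 counts. The labels name no animals, so the 6 pools are the replicates. A p-value measures the spread between pools, which edgeR estimates with help from all genes tested. In comparisons of 2 pools it therefore reflects little of the spread of 1 gene. On Smart-seq2 the E12.5 cells came in unlike plates. Plates 1 and 2 (sequencing batches 1 and 2) held 37 of 44 NP-like and 74 of 83 N-like cells, whereas the 5 plates of batch 5 held all but 9 EM-like and 20 EP-like cells.

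Both genes lie on the minus strand of GRCm38 in the GENCODE vM21 annotation, Pax3 (ENSMUSG00000004872.15) at chr1:78101267-78197134 and Pax7 (ENSMUSG00000028736.13) at chr4:139737062-139833528. Each has 9 merged exons, which add up to 6187 bases for Pax3 and 5860 bases for Pax7. Because the genes are paralogs, their annotated transcripts were searched for shared sequence that could pass reads from one gene to the other. The longest run that both genes hold is 26 bases. It is shown here because it is the only run of that length, and because it lies in the coding sequence of both genes across the junction of exons 1 and 2, between chr1:78195468 and chr1:78196671 in Pax3 and between chr4:139830355 and chr4:139832833 in Pax7 (lower case throughout, 5′ to 3′ on the transcript).
shared run of Pax3 and Pax7: ctggaagtgtccacccctcttggcca
No word of 31 bases, the default word length of kallisto, was shared between the 6181 words of Pax3 and the 5858 words of Pax7. The 2 genes' counts are therefore described as separate measurements on Smart-seq2. The 10x reads lie near the 3′ ends and were not searched apart.

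At E12.5 Pax3 was highest in the neural progenitors on both platforms. The neurons came next in the sum of each platform, though not on each Smart-seq2 plate. The order of the muscle and mesenchymal classes was less clear. The NP-like level was 389.2 CPM on 10x (99 UMIs, exact Poisson interval 316.3 to 473.9) and 403.3 CPM on Smart-seq2. N-like cells followed with 120.4 CPM (103.7 to 138.9) and 118.7 CPM. On Smart-seq2 the N-like level was 262.4 CPM on plate 1 (22 cells) and 25.3 CPM on plate 2 (52 cells). On plate 2 it lay below the 54.6 CPM of EM-like cells (6 cells) and the 34.7 CPM of EP-like cells (8 cells). EM-like cells held 31.6 CPM on 10x (14 UMIs, 17.2 to 52.9) and 98.3 CPM on Smart-seq2. The 10x intervals of NP-like, N-like and EM-like cells did not overlap at E12.5, whereas those of LM-like cells (41.1 CPM, 5 UMIs, 13.3 to 95.8) and EM-like cells did, and so did those of EM-like and EP-like cells (9.64 CPM, 5 UMIs, 3.13 to 22.5). All intervals cover counting error only. On Smart-seq2 the EP-like level was 68.8 CPM, not far below the EM-like one. In the 20 EP-like cells of batches 1 and 2 it was 90.6 CPM and in the 91 of batch 5 it was 35 CPM, while EM-like cells stood at 58.2 CPM (9 cells) and 168.9 CPM (47 cells). The order of EM-like and EP-like cells was thus reversed between these plates.

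Outside these classes Pax3 was close to nothing. No Pax3 UMI was found in any DF-like or BA-like 10x cell, which allows up to 2.48 CPM and 5.81 CPM (3 counts of the total). LP-like cells held 0.850 CPM at E14.5 and 2.56 CPM at E16.5 on 10x, from 2 and 1 UMIs, and 1.79 CPM and 0.164 CPM on Smart-seq2. On Smart-seq2, 24 DF-like cells (23.1%, median depth 992446 counts) had a count of Pax3, yet none of them reached 5 counts and their sum was 34.3 counts. A share of cells with any count of Pax3 is therefore read against this one, and shares of cells with at least 5 counts are given beside it.

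Pax7 had a different order, with EM-like cells first. Their level was 67.6 CPM on 10x at E12.5 (30 UMIs, 45.6 to 96.5), 55.2 CPM at E14.5 (92 UMIs, 44.5 to 67.7) and 46.96 CPM at E16.5 (13 UMIs, 25.01 to 80.3), and 46.98, 52.4 and 37.2 CPM on Smart-seq2. These 6 values lay within a narrow band, and each 10x interval held the other 10x values. NP-like cells held 35.4 CPM on 10x (9 UMIs, 16.2 to 67.2) and 25.02 CPM on Smart-seq2 at E12.5. In N-like cells of E12.5 the platforms differed, with 33.5 CPM on 10x (52 UMIs, 25 to 43.9) and 5.24 CPM on Smart-seq2. The 9 NP markers summed to 765 CPM in the 10x N-like cells and to 103.8 CPM in the Smart-seq2 ones, a difference whose part in the Pax7 level was not tested. At E14.5 no Pax7 UMI was found in 94 N-like 10x cells (up to 9.82 CPM), and the Smart-seq2 cells held 0.0298 CPM. EP-like cells held 5.79 CPM (3 UMIs, 1.19 to 16.9) and 14.2 CPM, the latter 22.2 CPM in batches 1 and 2 and 1.97 CPM in batch 5. DF-like and BA-like cells had no Pax7 UMI on 10x, and DF-like cells had 1 count in all on Smart-seq2.

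**Figure D1:**
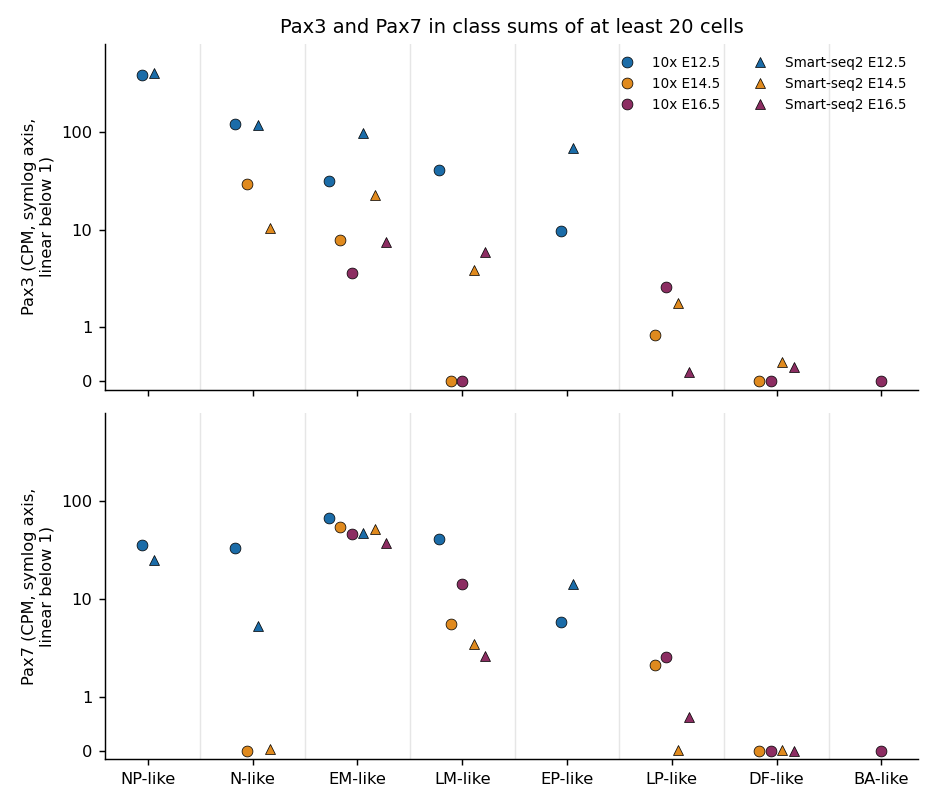
Pax3 (top) and Pax7 (bottom) in CPM for each class and pool with at least 20 cells, on a symmetric log axis that is linear below 1 CPM; circles are 10x sums, triangles Smart-seq2 sums, and colours mark the day. Pax3 is highest in NP-like cells (389.2 and 403.3 CPM) and Pax7 in EM-like cells (37.2 to 67.6 CPM), and both are at or near 0 in DF-like and BA-like cells.

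The positive cells were spread in the same unlike way. On 10x, 51.1% of the Pax3-positive cells were N-like (44.4 to 57.8%), 32.2% NP-like (73 cells) and 11.5% EM-like (26 cells), whereas 57.8% of the Pax7-positive cells were EM-like (96 cells), 25.3% N-like (42 cells) and 6.02% NP-like (10 cells). On Smart-seq2, 69.1% of the Pax7-positive cells were EM-like (61.7 to 75.9%), and NP-like cells held 56.7% of all Pax3 counts with 17.7% of the Pax3-positive cells. Most positive 10x cells rested on 1 molecule, 63.9% for Pax3 and 77.7% for Pax7, so that a 10x cell without a UMI may lack the gene or may not have had it sampled. With at least 5 counts on Smart-seq2, Pax3 was found in 57 of 60 NP-like cells, 36.2% of EM-like, 23.01% of EP-like, 12.2% of N-like, 11.1% of LM-like and 1.26% of LP-like cells. By the same limit Pax7 was found in 61.96% of EM-like, 28.3% of NP-like, 8.85% of EP-like, 6.17% of LM-like, 1.26% of LP-like and 0.939% of N-like cells. Pax3 in N-like cells was concentrated in few of them: at E12.5, 40 of 83 cells had a count, with a median of 4 counts among them and a highest value of 2579 counts.

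The class sums of the pools were then compared with edgeR (quasi-likelihood test, Benjamini-Hochberg adjustment over all genes tested, pool as a block). The first question was how each gene falls from progenitors to differentiating cells. In muscle, the difference of Pax7 between the 2 states passed the test and that of Pax3 did not. Pax7 stood in LM-like cells at 41.1, 5.49 and 14.1 CPM on 10x from E12.5 to E16.5 (5, 4 and 1 UMIs). The intervals of E12.5 (13.3 to 95.8 CPM) and E16.5 (0.357 to 78.7 CPM) took in the EM-like values of those days. On Smart-seq2 the LM-like level of Pax7 was 3.48 and 2.59 CPM at E14.5 and E16.5. Pax7 was higher in EM-like cells in 5 of 5 pools, by 3.14 ± 0.40 on the log2 scale (SE, 5 pools, edgeR adjusted p = 2.77e-08), in a comparison in which 12.7% of 9996 genes were called higher and 12% lower. Pax3 stood in LM-like cells at 41.1 CPM on 10x at E12.5, at 0 on 10x at both later days (up to 4.12 and 42.4 CPM), and at 3.87 and 5.88 CPM on Smart-seq2. It was higher in EM-like cells in 4 of 5 pools, and its estimate was 1.17 ± 0.68 (edgeR adjusted p = 0.223). In the 10x pool of E16.5 this rested on 1 EM-like UMI against 0, so the direction there is not resolved. With all deposited cells kept, the Pax7 estimate was 4.25 with an adjusted p of 0.166 (edgeR).

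The second question was the same step in the neural branch, where only the E12.5 pools of both platforms held at least 20 cells of each class. Pax3 was higher in NP-like than in N-like cells in both pools, 3.23-fold on 10x and 3.40-fold on Smart-seq2, with a fitted difference of 1.75 ± 0.29 (SE, 2 pools, edgeR adjusted p = 0.00176). In this comparison 1.78% of 13011 genes were called higher and 5.08% lower. Pax7 was 1.06-fold higher on 10x and 4.77-fold higher on Smart-seq2, and its difference of 1.32 ± 0.75 did not pass the test (edgeR adjusted p = 0.346). At a clustering resolution of 1.2 the Pax3 difference was 4.44 with an adjusted p of 0.432 (edgeR).

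Set against each other, the muscle and neural progenitors of E12.5 differed in Pax3. EM-like cells held less Pax3 than NP-like cells in both pools, by -2.39 ± 0.27 (SE, 2 pools, edgeR adjusted p = 4.04e-17), where 6.35% of 12186 genes were called lower and 9.69% higher. The EM-like level of Pax3 was 0.0811 times the NP-like level on 10x and 0.244 times on Smart-seq2. The SE and the p-value reflect little of this spread between the 2 pools. Pax7 was 1.91-fold higher in EM-like cells on 10x and 1.88-fold higher on Smart-seq2, a difference of 1.09 ± 0.44 (edgeR adjusted p = 0.0698). On Smart-seq2 this comparison lies mostly across plates, as given above. Within batches 1 and 2 the NP-like level of Pax3 was 402.4 CPM (37 cells) against an EM-like level of 58.2 CPM (9 cells), which is 6.92 times as high. Within batch 5 the NP-like level (7 cells) was 2.69 times the EM-like level of 168.9 CPM (47 cells). Of the 9 NP markers, Sox2, Sox21, Sox3 and Fabp7 had no count in the EM-like cells of E12.5 on Smart-seq2. The other 5 had counts there, with Nes the highest at 117.1 CPM in 78.6% of the cells. Slc1a3 was found in 37.5% and Ttyh1 in 33.9%. The 9 markers summed to 129.4 CPM against 2605 CPM in NP-like cells. On 10x these sums were 148.7 CPM and 3059 CPM, and 6 of the 9 had a count in EM-like cells. Sox2 was found in 1.88%, Fabp7 in 5% and Nes in 15% of these cells.

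The third question was where the genes were still read in the muscle and in the mesenchymal branch, whose forebears had both read Pax7. Both genes were higher in EM-like cells than in EP-like and LP-like cells summed as 1 class in 6 of 6 pools. The mesenchymal level of Pax7 was 5.76, 2.12 and 2.54 CPM on 10x from E12.5 to E16.5 (3, 5 and 1 UMIs) and 13.5, 0.0143 and 0.614 CPM on Smart-seq2. All 6 values lay below every EM-like value, and the fitted difference was 5.10 ± 1.28 (SE, 6 pools, edgeR adjusted p = 0.0298), where 11.5% of 14078 genes were called higher and 14.9% lower. The mesenchymal level of Pax3 was 9.596, 0.847 and 2.54 CPM on 10x (5, 2 and 1 UMIs) and 64.99, 3.59 and 0.164 CPM on Smart-seq2, so that the 2 classes overlapped between days. Within pools the difference of Pax3 was 2.59 ± 0.63 (edgeR adjusted p = 0.0124), and it ran from 1.42-fold on 10x at E16.5 to 45.4-fold on Smart-seq2 at E16.5. The 1.42-fold value rested on 1 UMI in each class, so the direction in that pool is not resolved. The call of Pax7 did not pass with 10x E12.5, 10x E14.5 or Smart-seq2 E16.5 left out (edgeR adjusted p = 0.05004, 0.0748 and 0.1104). Without sequencing batches 1 and 2, an alternative chosen after the data were seen, the difference was 5.84 for Pax7 and 2.99 for Pax3.

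Over the days, Pax3 fell in the muscle progenitors while no change of Pax7 was detected. The EM-like level of Pax3 on 10x was 31.6 CPM at E12.5, then 7.80 CPM and 3.61 CPM on the later days (14, 13 and 1 UMIs), and 98.3, 22.6 and 7.45 CPM on Smart-seq2. The level was lower at each later day on both platforms, although the 10x interval of E16.5 (0.0915 to 20.1 CPM) takes in that of E14.5 (4.15 to 13.3 CPM). The fitted slope was -0.84 ± 0.14 per day on the log2 scale (SE, 6 sums, platform as a term, edgeR adjusted p = 0.000111), a 1.79-fold fall per day, where 2.98% of 12612 genes were called as falling and 2.89% as rising. The slope of Pax7 was -0.02 ± 0.11 per day (edgeR adjusted p = 0.953). The difference between the slopes of the 2 genes was not tested. Without the Smart-seq2 sum of E12.5, the slope of Pax3 was -0.76 with an adjusted p of 0.144 (edgeR).

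Several measures moved with the day in these cells. EM-like cells of E12.5 and of 10x E16.5 lay mostly in 1 cluster (median 1880 UMIs per 10x cell) and those of E14.5 and Smart-seq2 E16.5 in another (median 8036 UMIs). The Pax3 level was 96.7 CPM in the first and 12.7 CPM in the second on Smart-seq2, and 21.3 and 7.73 CPM on 10x. The 8 EM markers, which were all detected in each sum, summed to 1167, 1564 and 1590 CPM along the days on 10x, and to 1945, 3038 and 2945 CPM on Smart-seq2. On Smart-seq2 each sequencing batch belongs to 1 day, so batch and day cannot be told apart there. Without batches 1 and 2 the slope was -1.01 for Pax3 (edgeR adjusted p = 2.66e-05) and -0.07 for Pax7 (edgeR adjusted p = 0.735). In a class sum, fewer cells that read a gene and less RNA per cell cannot be told apart, but both could be read from the Smart-seq2 cells: Pax3 was found in 67.9%, 43.1% and 25% of EM-like cells (38 of 56, 22 of 51 and 14 of 56) along the days, with a median of 36.03, 25.6 and 11.0 counts in the positive cells at median depths of 224365, 743180 and 875490 counts. The share of DF-like cells with a count of Pax3 was 28.2% at E14.5 and 20% (13 of 65) at E16.5, at median depths of 1255788 and 922510 counts. With at least 5 counts the EM-like shares were 60.7%, 33.3% and 14.3%, and thinned to 100000 counts they were 66% (33 of 50), 23.5% and 18.5%, against 5.13% and 6.25% of DF-like cells. For Pax7 they were 62.5%, 92.2% and 69.6% before and 66%, 80.4% and 53.7% after thinning, with no steady direction.

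**Figure D2:**
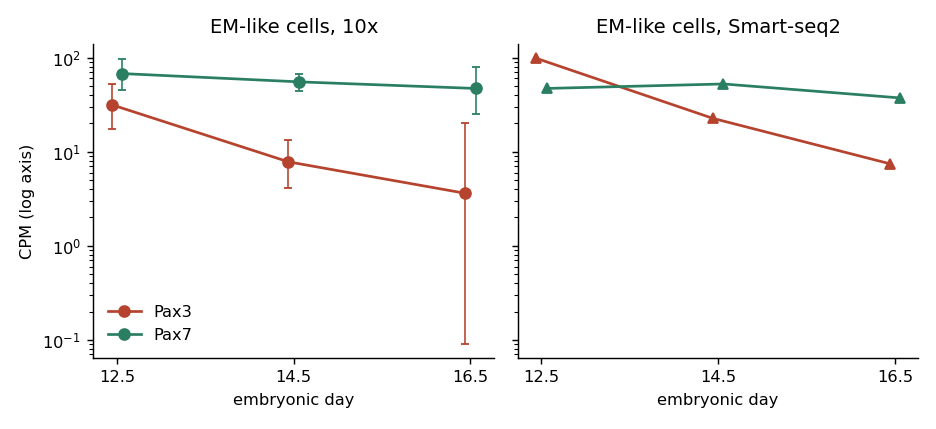
Pax3 (red) and Pax7 (green) in EM-like cells in CPM on a log axis against the embryonic day, on 10x (left, bars are exact Poisson 95% intervals) and Smart-seq2 (right, 1 sum per day). Pax3 falls from 31.6 to 3.61 CPM on 10x and from 98.3 to 7.45 CPM on Smart-seq2, whereas Pax7 stays between 37.2 and 67.6 CPM.

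The share of Pax3 among the reads of both genes was lower at each later day in the muscle progenitors, from unlike starting points on the 2 platforms. Smart-seq2 reads cover whole transcripts, so levels of the 2 genes were compared there per kb of exon. EM-like cells held 15.9 CPM per kb of Pax3 and 8.02 CPM per kb of Pax7 at E12.5, a ratio of 1.98, and the ratio was 0.408 at E14.5 and 0.190 at E16.5. At E12.5 the same ratio was 15.3 in NP-like, 21.4 in N-like and 4.58 in EP-like cells, so Pax3 exceeded Pax7 in all 4 classes on Smart-seq2 on that day. On 10x, where 1 end of each molecule is counted, 14 of the 44 Pax3 and Pax7 UMIs of EM-like cells were Pax3 on the first day (31.8%, exact binomial interval 18.6 to 47.6%), so Pax7 was the larger of the pair there already. The share was 12.4% on the second (13 Pax3 and 92 Pax7 UMIs, 6.76 to 20.2%) and 7.14% on the last (1 of 14, 0.181 to 33.9%), whose interval takes in that of the second. In NP-like cells Pax3 made up 91.6% (85.1 to 95.9%) and in N-like cells 79.03% (73.4 to 83.9%) over all days. The EM-like intervals did not overlap those of NP-like and N-like cells. In LM-like cells of E12.5 the share was 50% (5 of 10 UMIs, 18.7 to 81.3%), an interval that overlaps the N-like one.

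Cells with counts of both genes were found in both progenitor classes. Among the EM-like Smart-seq2 cells, 59 had counts of both genes, 15 of Pax3 alone, 62 of Pax7 alone and 27 of neither. The cells with both numbered 26 of 56, 22 of 51 and 11 of 56 on the successive days, and those with Pax7 alone 9, 25 and 28. Of the Pax7-positive cells, 74.3% (56.7 to 87.5%) also held Pax3 on the first day, 46.8% (32.1 to 61.9%) on the second and 28.2% (15 to 44.9%) on the last. The last of these is close to the 20% of DF-like cells with a count of Pax3 on that day. With at least 5 counts of each gene, which no DF-like cell reached, the cells with both numbered 19, 15 and 5, and the share of Pax7-positive cells with Pax3 was 67.9% (47.6 to 84.1%), 36.6% (22.1 to 53.1%) and 15.6% (5.28 to 32.8%). At E14.5 all 22 Pax3-positive EM-like cells held Pax7, and 15 of 17 did at the higher limit, but so did 86.2% of the Pax3-negative cells of that day at any count (68.3 to 96.1%). Over all days Pax7 was found in 79.7% of the Pax3-positive EM-like cells (68.8 to 88.2%) and in 69.7% of the Pax3-negative ones (59.01 to 78.97%), intervals that overlap. Cells with any count of Pax3 and none of Pax7 were found mainly at E12.5 (12, against 0 and 3 later), and their median depth of 176992 counts was below the 255101 counts of the cells with both.

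In NP-like cells nearly all cells held Pax3. Of 60 Smart-seq2 cells, 25 held both genes, 32 Pax3 alone, none Pax7 alone and 3 neither, so all 25 Pax7-positive cells held Pax3 (86.3 to 100%), as did 91.4% of the Pax7-negative ones (76.9 to 98.2%), and 43.9% of the Pax3-positive cells held Pax7 (30.7 to 57.6%). With at least 5 counts, 17 held both, 40 Pax3 alone and none Pax7 alone. The cells with both had a median depth of 1544148 counts and those with Pax3 alone 780529 counts. Thinned to equal depth, 30.4% of the Pax3-positive cells held Pax7. In N-like cells 4 held both, 66 Pax3 alone and 1 Pax7 alone, and in EP-like cells 10 held both, 32 Pax3 alone and 3 Pax7 alone. The 10 EP-like cells with both had a median depth of 1185974 counts against 219328 counts for those with neither. In LM-like cells 1 held both, 17 Pax3 alone and 6 Pax7 alone, and with at least 5 counts 9 held Pax3, 5 Pax7 and none both.

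On 10x the overlap could be read in part only, since few molecules were sampled. Of 2921 cells, 34 held both genes (1.16%). EM-like cells numbered 8 with both, 18 with Pax3 alone and 88 with Pax7 alone, NP-like cells 5, 68 and 5, and N-like cells 19, 97 and 23. All 19 N-like cells with both were from E12.5, with a median depth of 6872 UMIs against 2672 UMIs for those with neither. Pax7 was found in 30.8% of the Pax3-positive EM-like cells (14.3 to 51.8%) and in 17.8% of the Pax3-negative ones (14.51 to 21.4%), intervals that overlap.

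**Figure D3:**
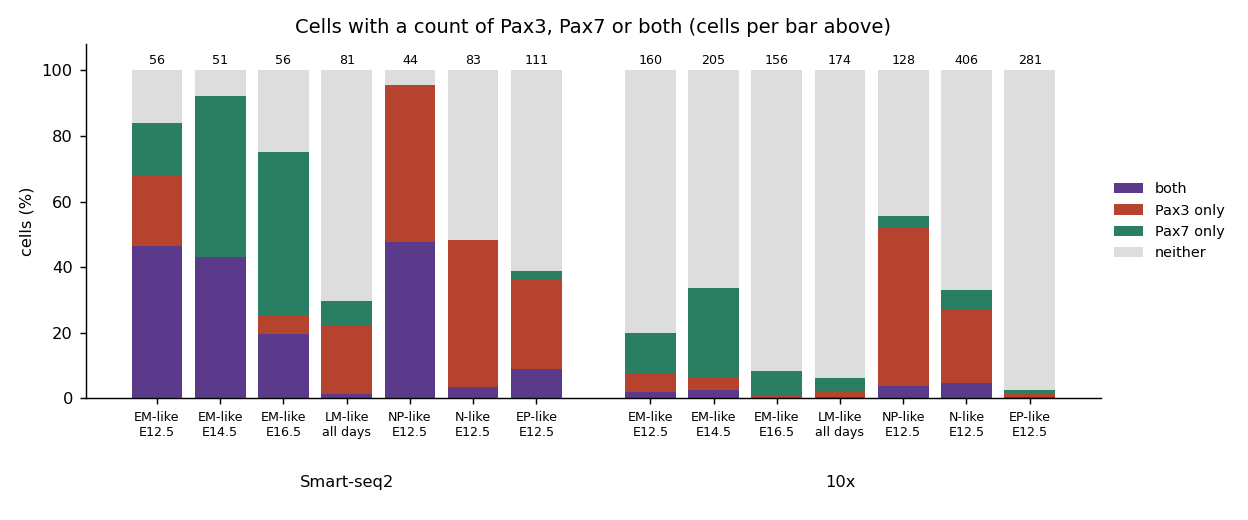
Percent of cells with a count of both genes, of Pax3 alone, of Pax7 alone and of neither, for Smart-seq2 (left) and 10x (right); the number of cells stands above each bar. In EM-like Smart-seq2 cells the cells with both go from 26 of 56 at E12.5 to 11 of 56 at E16.5, and in NP-like cells of E12.5 there is no cell with Pax7 alone.

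**Figure D4:**
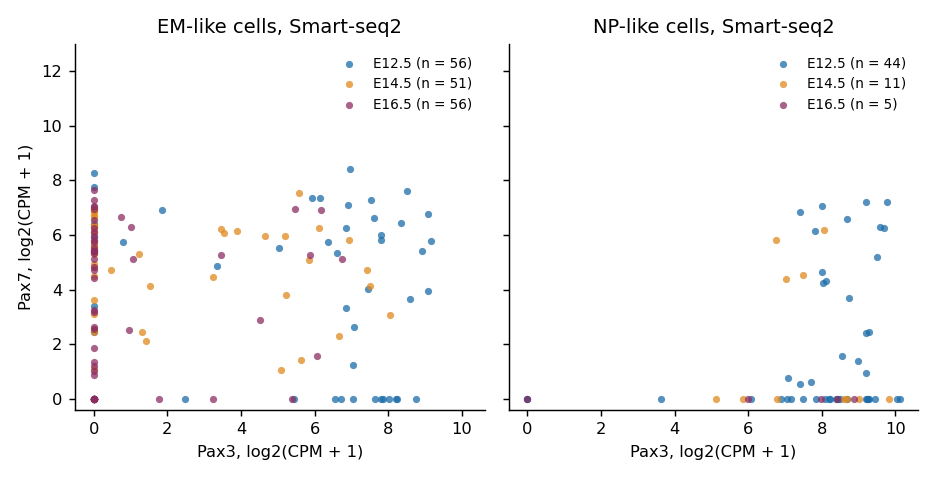
Pax7 against Pax3 in single Smart-seq2 cells of the EM-like (left) and NP-like (right) class, as log2(CPM + 1), with colours for the day. Of the EM-like cells 62 lie on the left edge above 0 (Pax7 alone), whereas of 60 NP-like cells 57 have Pax3 and none lies on the left edge above 0.

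Myogenic factors were compared between the 4 states of the EM-like cells as a description, since cells of a pool are not replicates. On Smart-seq2, Myf5, the earliest of these factors, was found in 81.4% of the 59 cells with both genes, 87.1% of the 62 with Pax7 alone, 9 of the 15 with Pax3 alone and 51.9% of the 27 with neither. Thinned to 100000 counts the Myf5 shares were closer, 81.6%, 83.1%, 70.6% and 65.7% in the same order, with levels of 216.3 CPM in the cells with both and 225.1 CPM in those with neither. Myod1 was found in 76.3% of the cells with both, 67.7% with Pax7 alone, 46.7% with Pax3 alone and 77.8% with neither. Thinned to 100000 counts the Myod1 shares were 71.1%, 69.2%, 58.8% and 74.3% in the same order. The states were taken over all days, and 12 of the 15 cells with Pax3 alone were from E12.5. Among all EM-like Smart-seq2 cells of E12.5, Myf5 was found in 62.5% and Myod1 in 51.8%. Myog, which marks the onset of differentiation, was on Smart-seq2 most frequent in the cells with neither gene: 59.3% of them (38.8 to 77.6%) held it, against 30.5% of those with both (19.2 to 43.9%), 3 of the 15 with Pax3 alone and 19.4% of those with Pax7 alone (10.4 to 31.4%). The level of Myog was 657 CPM in the cells with neither and 152.8, 56.6 and 57.02 CPM in those with both, with Pax3 alone and with Pax7 alone. Thinned to 100000 counts, Myog was found in 54.3% of the 35 cells then without either gene, against 31.6%, 17.6% and 18.5%. On 10x, with a median of 2672 UMIs in cells with neither and 6375 UMIs in those with Pax7 alone, the shares with Myog were 25.3% and 25% (22 of 88). Of the 10x cells with Pax3 alone 33.3% held Myog (6 of 18, 13.3 to 59.01%), and 1 of the 8 with both did.

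Genes around Pax3 and Pax7 were read from 6 lists of 48 genes. Of 9 targets and downstream muscle genes tested between EM-like and LM-like cells, 4 were higher and 2 lower (list median 0.70 on the log2 scale, against -0.03 over all genes tested). Of all genes tested there, 12.7% were called higher and 12% lower. Myf5 was higher by 4.80 ± 0.37 (edgeR adjusted p = 1.94e-10) and Id3, an inhibitor of myogenic factors, by 1.18 ± 0.17 (edgeR adjusted p = 3.02e-07), while Myog was lower by -4.60 ± 0.51 (edgeR adjusted p = 0.00305) and Myod1 by -1.04 ± 0.18 (edgeR adjusted p = 1.36e-05). Of 5 satellite cell genes tested, 3 were higher, among them the adhesion molecule Vcam1 (3.74 ± 0.38, edgeR adjusted p = 7.60e-11) and the Fgf feedback inhibitor Spry1 (1.79 ± 0.27, edgeR adjusted p = 1.28e-06). Among the upstream and partner factors, Dmrt2 (4.44 ± 1.17, edgeR adjusted p = 0.00368) and Tcf15 were higher. The calls of Tcf15, of Sdc4 and of Fgfr4, which is among the 4 targets, were lost with single pools left out. Calls lost with DESeq2 included that of Fgfr4 (0.63, edgeR adjusted p = 0.0494). The call of Tcf15 is not claimed to hold with DESeq2.

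Of 6 satellite cell genes tested along the days in EM-like cells, 3 rose, none fell and Spry1, Heyl and Itga7 did not pass (list median 0.62 per day, against a median near 0 over all genes tested): the calcitonin receptor Calcr by 2.25 ± 0.36 per day (edgeR adjusted p = 0.000183), the syndecan Sdc4 by 0.72 ± 0.13 (edgeR adjusted p = 0.000371) and Vcam1 by 0.51 ± 0.11 (edgeR adjusted p = 0.00315). Of all genes tested along the days, 2.89% were called as rising and 2.98% as falling. Calcr had no count at E12.5 on either platform, so that its slope depends on the prior count, and stood at 7.22 CPM on 10x and 50.1 CPM on Smart-seq2 at E16.5. Of 9 targets, Myod1 rose by 0.44 ± 0.11 and Fgfr4, a receptor gene that Pax3 is known to bind, by 0.46 ± 0.11 per day, and 7 did not pass. Fgfr4 stood at 22.5, 32.4 and 83.1 CPM on 10x and at 164.1, 412.99 and 408.95 CPM on Smart-seq2. Of 8 upstream factors tested, 1 fell, the cofactor Eya1 (-0.54 ± 0.14, edgeR adjusted p = 0.0148). The 3 dorsal neural tube genes tested (Msx1, Msx2 and Zic1, of which Zic1 is also known from somites) fell. On Smart-seq2 the sums of Msx1 and of Msx2 at E12.5 each came from 4 of 56 cells, and the call of Msx1 was lost at clustering resolutions of 0.4 and 1.2 and with all genes kept in the clustering. With each sum left out in turn, the call of Calcr passed in all 6 fits, whereas those of Sdc4, Vcam1, Myod1, Fgfr4, Eya1 and Zic1 were each lost in at least 1 and that of Msx2 in both fits that could test it.

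In the other comparisons the lists set the classes apart as follows. The EM-like class was itself named by muscle progenitor markers. Between EM-like and mesenchymal cells, 5 of 9 targets were higher (list median 4.15, against -0.16 over all genes tested). Of all genes tested, 11.5% were called higher and 14.9% lower. The 5 included Fgfr4 (9.34 ± 0.55, edgeR adjusted p = 1.03e-05) and Myf5 (7.13 ± 0.65, edgeR adjusted p = 0.000288). Among the upstream factors Eya1 and Eya2 were higher and Meox2 was lower. The calls of Eya2 (edgeR adjusted p up to 0.0597) and of some of the 5 targets were lost with single pools left out. Between EM-like and NP-like cells, 6 of 8 upstream factors and 6 of 9 targets were higher and none lower. Their list medians were 4.65 and 10.1, against 0.09 over all genes tested, of which 9.69% were called higher and 6.35% lower. Of 4 other Pax genes tested there, 1 was lower, Pax6, a factor of neural progenitors (-6.07 ± 0.73, edgeR adjusted p = 8.42e-15). Between NP-like and N-like cells Pax6 was higher, by 2.10 ± 0.44 (edgeR adjusted p = 0.00867), and Pax8 (-5.67 ± 0.50, edgeR adjusted p = 1.73e-05) and Pax5 (-5.23 ± 0.99, edgeR adjusted p = 0.00446), which mark spinal interneurons, were lower. The call of Pax5 was lost with sums of at least 10 cells. None of the 7 dorsal neural tube genes tested between NP-like and N-like cells passed (list median 2.06, against -0.07 over all genes tested). Of all genes tested there, 1.78% were called higher and 5.08% lower. These comparisons share the EM-like and NP-like sums, so their values stand side by side and were not compared.

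**Figure D5:**
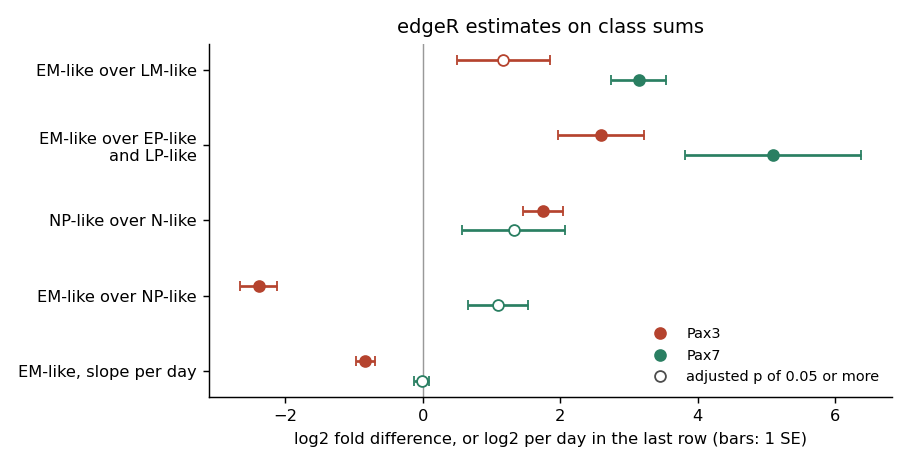
Fitted log2 differences of Pax3 and Pax7 between class sums, and the slope per day in EM-like cells, with bars of 1 SE; open points had an edgeR adjusted p of 0.05 or more. Pax7 is higher in EM-like than in LM-like cells (3.14), Pax3 is lower in EM-like than in NP-like cells (-2.39), and Pax3 falls with the day (-0.84) while Pax7 is near 0 (-0.02).

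Genes with the pattern most like each member were named by the Pearson correlation of log2(CPM + 1) over 13 Smart-seq2 class sums, among 12849 genes. For Pax3 these were Rpgrip1 (r = 0.970), Ttf1 (0.948), Knop1 (0.942), Rtn4ip1 (0.941) and Timm8b (0.939). For Pax7 they were Tfam (0.925), Olfr1388 (0.912), Pnn (0.908), Gm16286 (0.906) and Peg12 (0.904). The correlation of Pax3 with Pax7 was 0.720, which ranked 826th among the genes most like Pax3. Over 16 10x sums the values were 0.696 for Rpgrip1, 0.747 for Peg12 and 0.612 for Pax3 with Pax7, but 0.148 for Ttf1 and 0.0980 for Tfam. The points share days, plates and depth, and the correlations are a description of these sums.

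In the bulk libraries of sorted Pdgfra-/Cd36+ cells, which are technical duplicates from E16.5, both genes were close to 0. Pax3 had 18 reads of 24862787 in the first library and 18 of 32947290 in the second (0.724 and 0.546 CPM, exact Poisson intervals 0.429 to 1.14 and 0.324 to 0.863), and Pax7 had 3 and 5 reads (0.121 and 0.152 CPM). The fat cell gene Adipoq had 41471 and 40465 reads in the same libraries. Reads of the muscle progenitor markers Cdh15 (9 and 45) and Msc (5 and 42) and of Myog (15 and 38) were found beside them, and Sox2 had none in either library. The part of other cells in these few reads was not tested.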

How the data were processed

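The genes Pax3 and Pax7, the lists and the comparisons were chosen with earlier results of these data known. As deposited by the authors, the 10x table holds UMI counts from Cell Ranger (GRCm38), not normalized, and the Smart-seq2 table holds expected counts estimated with kallisto (0.44.0 per the labels) and summed per gene with tximport. The deposited bulk table holds read counts whose aligner is not given in the sources used here. Among its columns 16 could not be tied to Thy1+ or Thy1- by name and were not used, so the planned bulk tests were not run.

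The labels place samples in groups by platform and day. Cells with over 8% mitochondrial counts were left out (64 cells). None was lost to the study's other limits (4000 genes on Smart-seq2, 15000 UMIs on 10x). Platforms were integrated with Seurat 5.3.0 (2000 variable genes without the 48 list genes and both members, 30 components, resolution 0.8). A cluster took the name of the class with the highest marker score if this reached 0.8, provided that 3 or more markers were each found in 10% of its cells on a platform with 10 or more cells. These limits were set after the clusters were seen, and every cluster then had a name, so the rebuilt names may differ from the study's. Scrublet in scanpy 1.11.5 marked 26 10x cells (0.890%) as doublets, which were kept.

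Counts were summed per class and pool (at least 20 cells, expected counts rounded) and tested with edgeR 4.0.16 (filterByExpr, TMM, robust quasi-likelihood test, adjusted p under 0.05) in R 4.3.3, a procedure first tested on simulated data. The SE of a log2 difference is its size divided by the square root of F. Intervals are exact at 95%, a count of 0 allows 3 counts, and both cover counting error only. Thinned cells had 1000 UMIs or 100000 counts, which left out 208 and 16 cells. The result of 1 listed gene is not reported here. Genes named are both members in every comparison and those of the fixed lists, plus 5 genes most like each member with at least 10 CPM in 1 sum. Alternatives were DESeq2 1.42.0, no filter, each pool left out, 10x alone, resolutions of 0.4 and 1.2, the listed genes kept in the clustering, doublets removed, all deposited cells and at least 10 cells per sum, plus, chosen after the data were seen, leaving out sequencing batches 1 and 2 of Smart-seq2.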

Additional observations from a re-analysis of the deposited data

Results flagged for a closer look

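The effect of muscle class on Pax3 went the other way in 1 pool. At E12.5 on 10x the EM-like level was 0.768 times the LM-like level (31.6 against 41.1 CPM, from 14 and 5 UMIs), whereas EM-like cells were higher in the 4 pools of E14.5 and E16.5. Of these, the 10x pool of E16.5 rested on 1 EM-like UMI against 0, so its direction is not resolved. The 10x intervals of E12.5 overlapped (17.2 to 52.9 CPM and 13.3 to 95.8 CPM). E12.5 has 1 pool with at least 20 cells of both classes. On Smart-seq2 at E12.5, below this limit, EM-like cells held 98.3 CPM and the 14 LM-like cells 14.7 CPM. The difference between days was not tested.

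The sorted Pdgfra-/Cd36+ bulk libraries enter no comparison. They held 18 Pax3 reads in each of the duplicates and 5 Pax7 reads in the second, above the limit of 3 reads that a count of 0 allows, while the first held 3 Pax7 reads.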

How the results depend on the processing

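Of the alternative fits for Pax3 and Pax7, 110 kept direction and side of the threshold, 6 lost a call, 5 gained one and 1 changed sign. Of the listed genes' fits 630 kept both, 88 lost a call and 6 changed sign. With all deposited cells the EM-like against LM-like difference of Pax7 was 4.25 (edgeR adjusted p = 0.166), and at resolution 1.2 the NP-like against N-like difference of Pax3 was 4.44 (edgeR adjusted p = 0.432). The EM-like against NP-like difference of Pax7 passed in 5 settings, at 1.22 and 1.58 (resolutions 0.4 and 1.2), 1.28 (genes kept in clustering), 1.27 (all deposited cells) and 1.53 (at least 10 cells per sum). With each pool left out, the EM-like against LM-like difference ran from 0.56 to 1.83 for Pax3 and from 3.01 to 3.55 for Pax7, the EM-like against mesenchymal one from 1.96 to 3.21 and from 4.07 to 6.47, and the slope per day from -0.93 to -0.76 and from -0.0937 to 0.00335, the last without 10x E16.5. Pax7 against mesenchymal cells lost its call without 10x E12.5 (5.34), 10x E14.5 (5.15) or Smart-seq2 E16.5 (4.80). In the EM-like against NP-like comparison Msx1 turned from 2.55 to -5.08 and -4.90 (resolutions 0.4 and 1.2), -5.10 (genes kept), -4.92 (all cells) and -2.66 (10 cells). Itm2a between NP-like and N-like cells turned to 0.82 at resolution 1.2. The causes were not tested.

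With at least 2 UMIs for a positive 10x cell, Pax3 was found in 0.384% of EM-like and 17.3% of NP-like cells and Pax7 in 5.18% and 0%, and none of the EM-like or NP-like overlap remained (0%). Thinned, these shares were 1.60%, 26.96%, 5.59% and 2.61%, with an EM-like overlap of 0%. With at least 5 counts on Smart-seq2, Pax3 was found in 36.2% and Pax7 in 61.96% of EM-like cells (thinned 35.5% and 66.45%), and Pax7 in 28.3% of NP-like cells (28.8%). Pax7 was then found in 66.1% of Pax3-positive EM-like and 29.8% of Pax3-positive NP-like cells (30.4% thinned), and Pax3 in 38.6% of Pax7-positive EM-like cells (36.9%).

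Across alternatives, genes called higher and lower made up 9.26 to 14.3% and 5.72 to 12.1% of those tested (EM-like against LM-like), 6.69 to 19.7% and 8.34 to 20.4% (mesenchymal), 1.27 to 3.95% and 4.41 to 7.52% (NP-like against N-like), 4.96 to 9.88% and 2.99 to 6.39% (EM-like against NP-like), and 0.469 to 6.86% and 0.258 to 7.26% (day). No paired analysis was possible because the replicate numbers name cells or single libraries and the bulk columns that share numbers were not used; pool was already a block. Pools could not be left out of comparisons with 2 pools, and Pax3 was too low to be tested on 10x alone against mesenchymal cells and by day. The 10x depth limits single-cell overlap, since most positive cells held 1 UMI.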
